A study of Rattus norvegicus with 12 samples.

Results

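Angiotensin II (AngII) was set against TRV023 in lungs of monocrotaline (MCT) rats, a full agonist against a biased agonist of the same receptor. The members were all genes listed in both deposited tables, of AngII and of TRV023 against vehicle, which gave 17272 genes of 19687 listed in any table of the series. The 3 AngII libraries and the 3 TRV023 libraries were compared gene by gene, with the 3 vehicle libraries printed as the background of both. The rats were 9 weeks old according to the labels and, from the methods of the study, male Sprague-Dawley rats that had received a single subcutaneous dose of 60 mg/kg MCT. Subcutaneous minipumps delivered AngII at 1 mg/kg/day, TRV023 at 10 μg/kg/min or phosphate-buffered saline as vehicle. The doses of the agonists therefore differ, and by mass per day that of TRV023 was the larger. For histology and hemodynamics the pumps were placed 1 week after MCT for 2 weeks, and no separate time is given for the sequenced lungs. MCT was shared by all groups, including vehicle, and no lung without MCT was sequenced here. The fourth group, of 3 libraries, received losartan. It entered the filter, the scaling, the estimate of the spread and the centring of list levels, and some of its values are printed. The libraries are named by drug and number as in the labels, Ang2_922, Ang2_931 and Ang2_933 for AngII, Trv_917, Trv_918 and Trv_930 for TRV023, and Veh_923, Veh_924 and Veh_963 for vehicle. Statements on which libraries were highest or lowest cover these 9 libraries.

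AngII is a peptide hormone that binds the angiotensin II type 1 receptor (AT1R), a G protein–coupled receptor of smooth muscle and other cells. The bound receptor activates Gq, which leads through phospholipase C to calcium release and protein kinase C, and it also recruits β-arrestins, adapter proteins that end G protein signaling and carry signals of their own, for example to the ERK kinases. TRV023 is a peptide of the same length that carries sarcosine in place of the first residue of AngII, lysine in place of the central isoleucine and alanine in place of the last phenylalanine. It recruits β-arrestin to AT1R with little G protein activation. MCT injures the pulmonary vessels of rats and is a common model of pulmonary hypertension.

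No gene passed the test between AngII and TRV023. Of 15669 genes that passed the filter on low counts, edgeR called 0 genes at a Benjamini-Hochberg adjusted p under 0.05 (0%), and the smallest adjusted p was 0.0692. At an unadjusted p under 0.05 there were 850 genes higher with AngII, 5.42% of those tested, and 851 lower, 5.43%. DESeq2 on the same 12 libraries called 88 genes higher (0.543% of 16221) and 128 lower (0.789%). The edgeR split of 850 against 851 became 361 of 2002 genes higher with library totals in place of TMM, a scaling that lowered the median of all genes to -0.15 on the log2 scale from -0.01. Fold changes below are on the log2 scale, AngII over TRV023, from edgeR with TMM, and their intervals are 95 percent intervals. They are described as values, and the counts at an unadjusted p under 0.05 and by DESeq2 are set beside the shares of all genes given here.

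The 6 libraries held 16106337 to 20096877 counted reads, and replicates of every group differed by more than sampling noise. The labelled tissue matched its markers, since Sftpc, the surfactant protein of alveolar type 2 cells, had 12441, 11653 and 11813 FPKM with AngII and 8187, 9886 and 5224 FPKM with TRV023. FPKM, the unit of all levels per library given here, is a read count scaled by the length of the gene and by the total of counted reads. In FPKM 2280 of the genes tested lay wholly below TRV023 with AngII and 680 wholly above. After TMM scaling these numbers were 1246 and 1322. Statements below on overlap or on the lowest libraries in FPKM are not corrected for this shift. Of the genes listed in a single table, 564 were listed with AngII but not with TRV023, none of them with at least 10 reads in each AngII library, and 1297 with TRV023 but not with AngII, of which only Ccdc121 had at least 10 reads in each TRV023 library. A piece of lung holds many cell types, so that fewer cells of a type and less RNA per cell cannot be told apart in any value below.

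The mitochondrial genome holds 13 protein genes, for subunits of the respiratory chain and of ATP synthase. All of them were higher with AngII, with a median log2 fold change of 1.23. Their members lay between 1.13 and 1.66, and all 13 were at an unadjusted p under 0.05. DESeq2 called all 13. The share of counted reads that fell on mitochondrial genes was 9.62%, 12.1% and 12.3% in the AngII libraries, 4.36%, 4.58% and 7.07% in the TRV023 libraries, and 6.52%, 7.55% and 5.65% in the vehicle libraries. Every AngII library was therefore above every TRV023 and every vehicle library, with means of 11.4% ± 1.51 for AngII and 5.34% ± 1.51 for TRV023 (SD, n = 3 each). An exact two-sided permutation test of these means gave p = 0.1, the smallest value that 3 against 3 allows.

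Mt-co1, which encodes the catalytic subunit of complex IV and took the most reads in every library, had 22684, 27816 and 28976 FPKM in AngII lungs, 9643, 10758 and 15588 FPKM in TRV023 lungs and 14150, 17062 and 12558 FPKM in vehicle lungs. The AngII libraries lay above all TRV023 and vehicle libraries, and the log2 fold change of Mt-co1 was 1.29 (0.65 to 1.93, edgeR adjusted p = 0.281; DESeq2 adjusted p = 0.00187). The largest fold of the 13 was that of Mt-atp8, a small subunit of ATP synthase, at 354, 350.2 and 477 FPKM with AngII and 117, 124 and 171 FPKM with TRV023. Vehicle lungs had 130.2, 205 and 156 FPKM of Mt-atp8, which overlapped with TRV023 and not with AngII, and its log2 fold change was 1.66 (0.92 to 2.40). ND3, a subunit of complex I, had 2315, 3332 and 2684 FPKM with AngII and 1236, 1020 and 1793 FPKM with TRV023. Mt-co3, of cytochrome c oxidase, had 13677, 17657 and 17457 FPKM with AngII and 6458, 6541 and 10293 FPKM with TRV023. In all of these genes Trv_930 was the highest TRV023 library and stayed below the lowest AngII library. Against vehicle, the median of the 13 genes was 0.88 with AngII and -0.29 with TRV023, both comparisons sharing the vehicle libraries. The ribosomal and transfer RNA genes of the mitochondrial genome had a similar median of 1.24 over 19 tested genes, 13 of them higher at an unadjusted p under 0.05 and none lower.

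All 13 remained higher at an unadjusted p under 0.05 without any single AngII or TRV023 library. The DESeq2 count was 2 of 13 without Ang2_931, without Ang2_933 or without Trv_918, and 9 without Trv_917. The losartan library Los_965 also had a mitochondrial share, and 22946 FPKM of Mt-co1, within the range of the AngII libraries.

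**Figure D1:**
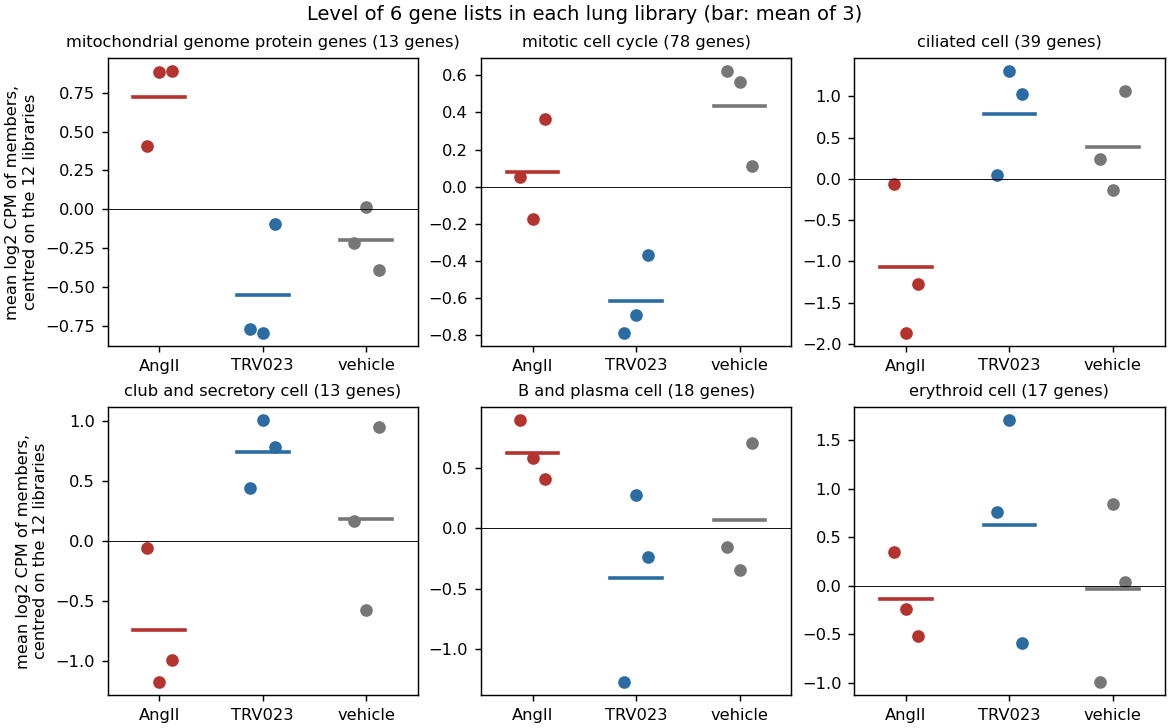
Level of 6 gene lists in each library, as the mean log2 CPM of the members centred on the 12 libraries, with AngII, TRV023 and vehicle side by side; points are libraries and bars are means of 3. The AngII libraries lie above the TRV023 libraries for the mitochondrial (0.40 to 0.89 against -0.79 to -0.09) and the mitotic list, and below them for both airway lists, whereas the groups overlap for the erythroid list.

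Nuclear genes of the respiratory complexes differed less. Of 31 tested nuclear subunits of complex I, 10 were higher and 0 lower with AngII at an unadjusted p under 0.05, with a median of 0.33, and of 41 subunits of complexes II to V, 15 were higher and 1 lower with a median of 0.32. Ndufc1, an accessory subunit of complex I, had 60.4, 65.7 and 62 FPKM with AngII, 40.9, 37.5 and 49.7 FPKM with TRV023 and 49.3, 45.8 and 48.6 FPKM in vehicle. Its AngII libraries were above all others (log2 fold change 0.69, 0.38 to 1.01, edgeR adjusted p = 0.264; DESeq2 adjusted p = 0.00852). Uqcrq, of complex III, had 222, 284 and 255 FPKM with AngII and 199, 152 and 173 FPKM with TRV023, again without overlap.

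The cytosolic ribosomal proteins had a median of 0.37, with 23 of 74 higher and 0 lower with AngII at an unadjusted p under 0.05. Rps19, of the small ribosomal subunit, had 327, 323 and 309.5 FPKM with AngII and 206, 286 and 189.8 FPKM with TRV023 (log2 fold change 0.64, 0.30 to 0.98). The 25 nuclear factors that copy, transcribe and translate the mitochondrial genome had a median of 0.01, with 2 higher and 1 lower. Respiratory subunits and ribosomal proteins come from short genes, with median gene lengths of 678, 630 and 577.5 bases against 1983 bases over all genes tested. The mean log2 gene length of the counted reads was 10.81 to 10.91 in AngII libraries, 10.94 to 10.97 in TRV023 libraries and 10.96 to 10.98 in vehicle libraries. It was lower in the 3 AngII libraries than in the TRV023 and vehicle libraries. The losartan libraries Los_964 and Los_965 were at 10.88 and 10.90, within the AngII range. Reads of mitochondrial genes are part of this mean. With the trend of fold change on gene length removed, the medians were 0.20 for complex I, 0.17 for complexes II to V, 0.20 for ribosomal proteins and 1.12 for the mitochondrial protein genes, and with library totals they were 0.19, 0.17 and 0.22 for the first 3 of these lists. Without Ang2_931 or without Trv_918, 4 of 74 ribosomal protein genes were higher at an unadjusted p under 0.05, and the number for complexes II to V was 4 and 5 of 41 and for complex I 3 and 5 of 31.

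By their medians, genes of mitosis were lower with TRV023 than with AngII or in vehicle. Of 80 genes of the mitotic list 78 were tested, and of these 36 were higher with AngII than with TRV023 at an unadjusted p under 0.05 and 1, Aurkb, was lower, with a median of 0.73. DESeq2 called 7 of them, all higher, and 42 of 78 did not overlap between the groups with AngII above, against 8.44% of all genes tested (TMM-scaled CPM), whereas 0 lay wholly below, against 7.95%. Against vehicle the median was -0.34 with AngII and -1.12 with TRV023. The centred level of the list was 0.05, -0.18 and 0.37 in the AngII libraries, -0.79, -0.69 and -0.37 in the TRV023 libraries, and 0.62, 0.57 and 0.11 in the vehicle libraries. The losartan libraries Los_925, Los_964 and Los_965 were at 0.28, -0.49 and 0.51, with Los_964 within the range of TRV023.

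Many promoters of mitotic genes carry the CHR element (TTTGAA), a site through which the DREAM complex and MuvB proteins hold these genes silent outside late cell cycle phases, and a CCAAT box (CCAAT), the site of the factor NF-Y. Both motifs were searched on both strands in RefSeq promoter windows of the GRCr8 assembly, from 250 bases before to 50 after the start. Of the 78 mitotic members 65 had a window, and 44 of these held the CHR element (67.7%), against 18.1% of all 27457 windows and 1271 of 10625 windows of genes tested. The CCAAT box was in 66.2% of the mitotic windows and in 37.7% of all windows. Of 48 windows of DNA replication genes, 8.33% held the CHR element and 60.4% the CCAAT box. The windows of the 3 mitotic members with the smallest p that held both motifs are shown as examples. Every match is in capitals, and the stretch runs from 10 bases before the first match to 10 after the last.
Kif22, chr1:191080879-191081119, minus strand, GRCr8: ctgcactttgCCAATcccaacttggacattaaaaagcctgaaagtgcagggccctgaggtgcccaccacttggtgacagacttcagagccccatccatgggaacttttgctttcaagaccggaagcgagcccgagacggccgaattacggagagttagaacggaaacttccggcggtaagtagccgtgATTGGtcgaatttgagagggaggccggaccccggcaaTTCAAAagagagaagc
Cdk1, chr20:19265073-19265292, plus strand, GRCr8: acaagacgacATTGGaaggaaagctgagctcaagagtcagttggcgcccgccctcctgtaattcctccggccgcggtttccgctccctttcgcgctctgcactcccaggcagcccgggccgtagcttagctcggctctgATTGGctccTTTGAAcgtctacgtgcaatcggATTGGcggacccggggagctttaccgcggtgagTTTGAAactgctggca
Cdca8, chr5:142483274-142483401, minus strand, GRCr8: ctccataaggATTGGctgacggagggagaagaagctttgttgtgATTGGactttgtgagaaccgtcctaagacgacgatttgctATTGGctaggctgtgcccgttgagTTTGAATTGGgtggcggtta
Capitals reading TTTGAA or TTCAAA are CHR elements, and CCAAT or ATTGG are CCAAT boxes on either strand. In Cdca8 a CHR element and a CCAAT box overlap. The CHR element nearest to the start began 16 bases before it in Kif22 and Cdk1 and 94 bases before it in Cdca8. These matches describe the letters of the windows and were not tested as binding sites.

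**Figure D2:**
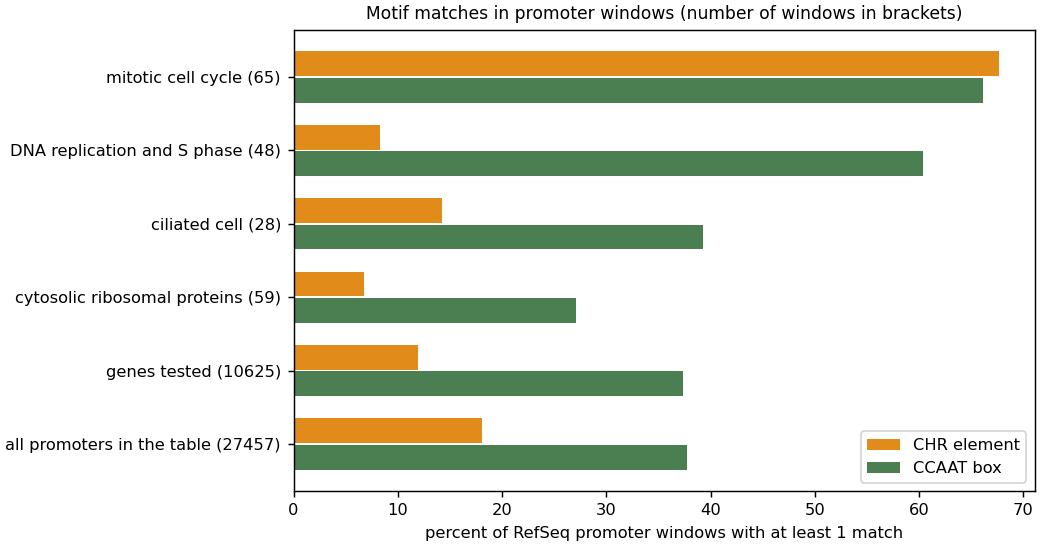
Share of RefSeq promoter windows with at least 1 CHR element or CCAAT box, in percent, for 4 gene lists, for the genes tested and for all windows; the number of windows stands in brackets. The CHR element was in 67.7% of mitotic windows and in 8.33% of DNA replication windows.

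Cdk1, the kinase that drives entry into mitosis, had 17.2, 16.3 and 25.6 FPKM with AngII, 8.78, 6.53 and 12.3 FPKM with TRV023 and 23.4, 21.9 and 18.4 FPKM in vehicle. All TRV023 libraries were below all AngII and vehicle libraries (log2 fold change 1.24, 0.49 to 1.98, edgeR adjusted p = 0.281; DESeq2 adjusted p = 0.0415). Kif22, a kinesin that moves chromosome arms, had 4.28, 4.78 and 4.97 FPKM with AngII, 2.02, 1.72 and 2.72 FPKM with TRV023 and 5.9, 7.17 and 2.99 FPKM in vehicle. Cdca8, a subunit of the chromosomal passenger complex, had 10, 8.74 and 13.1 FPKM with AngII and 5.48, 4.47 and 7.88 FPKM with TRV023. These 3 genes, whose promoters are shown above, had TRV023 lowest in every library. The smallest p of the list was that of Cdca3, which helps to degrade an inhibitor of mitotic entry, at 8.23, 7.44 and 9.87 FPKM with AngII, 3.7, 4.07 and 4.82 FPKM with TRV023 and 11.5, 11.6 and 6.97 FPKM in vehicle (log2 fold change 1.16, 0.61 to 1.71). Kif2c, Knstrn and Spc24, which act at kinetochores and the spindle, had log2 fold changes of 1.26, 1.34 and 1.25. In each of these 7 genes the AngII and TRV023 libraries did not overlap. They were picked by small p from the same counts, so this was close to fixed in advance. Mki67, the gene of the proliferation antigen Ki-67, had 5.17, 3.57 and 5.82 FPKM with AngII and 3.91, 4.97 and 3.1 FPKM with TRV023, which overlapped (log2 fold change 0.42, -0.27 to 1.11).

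Genes of DNA replication had a median of 0.37, with 12 of 59 higher with AngII and 0 lower at an unadjusted p under 0.05. The centred level of this list was -0.29, -0.36 and -0.10 in the TRV023 libraries. The losartan library Los_964 was lower still, at -0.48, with Los_925 at 0.19 and Los_965 at 0.14. Mcm3, a subunit of the replicative helicase, had 10, 8.89 and 10.6 FPKM with AngII, 6.64, 6.43 and 6.81 FPKM with TRV023 and 10.7, 11.3 and 8.43 FPKM in vehicle, with all TRV023 libraries lowest. Mcm5, of the same helicase, had 9.67, 7.78 and 12.9 FPKM with AngII and 6.33, 5.29 and 5.22 FPKM with TRV023. The number of DNA replication genes higher at an unadjusted p under 0.05 was 5 of 59 without Ang2_933 and 20 without Ang2_922, and their median was 0.17 on log2(FPKM + 1), 0.20 on log2(FPKM + 0.1) and 0.23 with library totals. The number of mitotic genes higher at an unadjusted p under 0.05 was 12 of 78 without Ang2_933, 18 without Trv_917 and 20 without Trv_918, with medians of 0.60, 0.64 and 0.64. The DESeq2 count was 0 without Ang2_933 or without Trv_918 and 12 without Ang2_922.

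**Figure D3:**
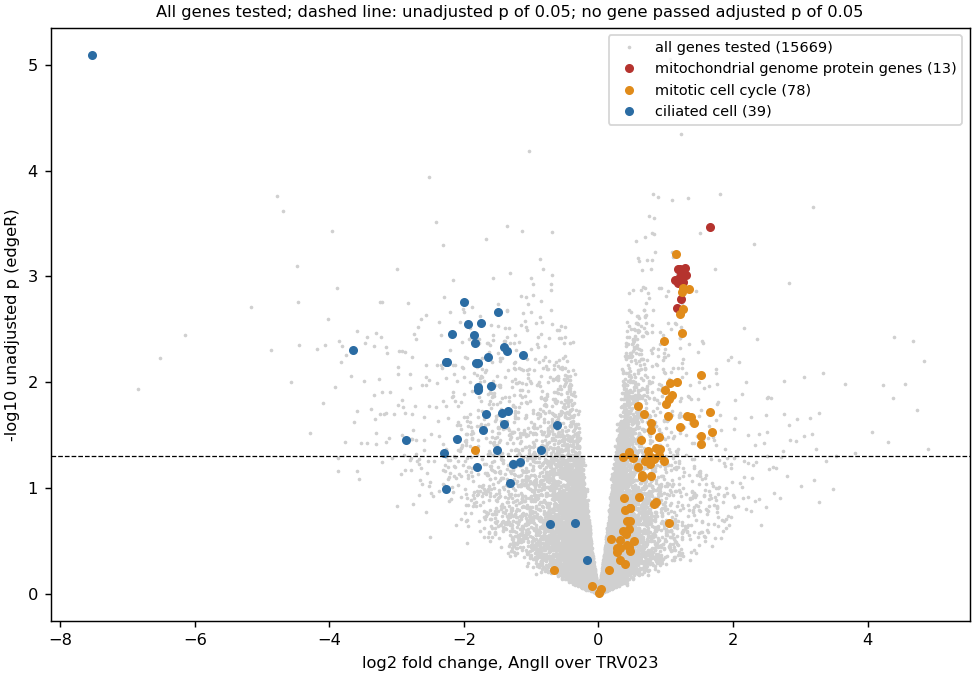
Log2 fold change of AngII over TRV023 against -log10 of the unadjusted edgeR p for the 15669 genes tested, with 3 gene lists coloured; the dashed line is an unadjusted p of 0.05. The 13 mitochondrial genes stand together between 1.13 and 1.66, 36 of 78 mitotic genes lie above the line on the AngII side, and 31 of 39 ciliated cell genes lie above it on the TRV023 side.

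Genes of airway epithelium were lower with AngII by their medians. Of 46 markers of ciliated cells, the cells whose cilia move mucus, 39 were tested and the others were not matched by symbol in both tables. All 39 had a negative log2 fold change, with a median of -1.71. Below an unadjusted p of 0.05 there were 31, and 13 were lower by DESeq2. Of 18 club and secretory cell markers 13 were tested, and of these 7 were lower and 0 higher with a median of -1.28. Against vehicle the ciliated median was -1.32 with AngII and 0.36 with TRV023.

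The centred level of the ciliated list was -0.06, -1.87 and -1.27 in Ang2_922, Ang2_931 and Ang2_933, and 0.04, 1.31 and 1.02 in Trv_917, Trv_918 and Trv_930, so that Ang2_922 and Trv_917 were close. The vehicle libraries were at 0.25, -0.13 and 1.06, with Veh_963 within the range of TRV023. Ccdc153, a protein of motile cilia, had 15.4, 3.45 and 7.62 FPKM with AngII, 26.5, 46.9 and 40.9 FPKM with TRV023 and 23.4, 14.6 and 42 FPKM in vehicle (log2 fold change -1.99, -3.08 to -0.90, edgeR adjusted p = 0.281; DESeq2 adjusted p = 0.00846). Dnai2, an intermediate chain of the outer dynein arm, had 2.73, 1.01 and 1.2 FPKM with AngII and 3.62, 8.14 and 6.29 FPKM with TRV023. The AngII libraries of both genes lay below all TRV023 libraries but overlapped with vehicle.

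Lrrc23, a component of the radial spokes of cilia, shared the smallest adjusted p of all genes with Ltb. It had 2, 0 and 0 reads in the AngII libraries, 59, 309 and 130 reads in the TRV023 libraries, and 11, 3 and 12 reads in the vehicle libraries. Summed over the 3 libraries and divided by their totals, TRV023 had 248 times the reads of AngII, with an exact 95 percent interval of 68.3 to 2052 that covers counting error only (edgeR adjusted p = 0.0692). The vehicle libraries stood between the drugs, nearer to AngII. The strand setting of the counting is not given in the sources used here, so reads of Lrrc23 and of genes that overlap it cannot be told apart.

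Scgb3a1, a secretoglobin of secretory cells, had 1.94, 1.77 and 4.03 FPKM with AngII, 55.7, 85.8 and 49.9 FPKM with TRV023 and 5.45, 6.74 and 74.6 FPKM in vehicle. The AngII libraries were the lowest 3, Veh_963 stood with the TRV023 libraries, and the log2 fold change was -4.48 (-6.69 to -2.27, edgeR adjusted p = 0.281). With the 6 AngII and TRV023 libraries alone Scgb3a1 was the only gene called by edgeR (adjusted p = 0.0285). Scgb1a1, the main secreted protein of club cells, had 13396, 6588 and 8381 FPKM with AngII, 17222, 27597 and 30478 FPKM with TRV023 and 14965, 12498 and 29879 FPKM in vehicle. Its libraries did not overlap between AngII and TRV023. Cyp2f4, a cytochrome P450 of club cells, had 7.12, 1.62 and 0.995 FPKM with AngII and 10.4, 62.7 and 28.7 FPKM with TRV023.

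The ciliated median was -2.57 without Ang2_922, and between -1.99 and -1.35 without any other single AngII or TRV023 library; all 39 genes stayed below 0 each time. The DESeq2 count was 32 without Ang2_922 but 1 without Ang2_931, Ang2_933 or Trv_918 and 2 without Trv_930. For club and secretory cells 3 of 13 were lower at an unadjusted p under 0.05 without Ang2_931 or without Ang2_933. How much airway each piece of lung held was not tested.

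Markers of lymphocytes and of antigen presentation were higher with AngII by their medians. Of 20 B and plasma cell markers 18 were tested, and of these 5 were higher and 0 lower at an unadjusted p under 0.05, and the median was 0.81. Of 16 dendritic cell genes, which hold the MHC class II genes, 7 were higher and 0 lower with a median of 0.60, and of 28 T and NK cell markers 7 were higher and 0 lower with a median of 0.32. Pax5, the transcription factor of B cell identity, had 14.9, 10.6 and 8.19 FPKM with AngII, 0.634, 4.7 and 1.9 FPKM with TRV023 and 3.92, 4.67 and 7.75 FPKM in vehicle. The AngII libraries were the highest 3 (log2 fold change 2.36, 0.91 to 3.81, edgeR adjusted p = 0.281; DESeq2 adjusted p = 0.0232).

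Ltb, lymphotoxin beta, a membrane cytokine of lymphocytes that organizes lymphoid tissue, had 44, 49.3 and 38.8 FPKM with AngII, 19.5, 24.2 and 26.2 FPKM with TRV023 and 19.4, 21.7 and 22.7 FPKM in vehicle. Every AngII library was above all others, TRV023 overlapped with vehicle, and the log2 fold change was 1.06 (0.74 to 1.38, edgeR adjusted p = 0.0692; DESeq2 adjusted p = 2.15e-06). It was also the only gene that edgeR called in the same fit for AngII against vehicle, at a log2 fold change of 1.20 (edgeR adjusted p = 0.0391). Batf3, a transcription factor of cross-presenting dendritic cells, had 25.8, 27.5 and 34 FPKM with AngII and 13.1, 15.4 and 16.5 FPKM with TRV023. Cd74, the invariant chain of MHC class II, had 2941, 3558 and 3274 FPKM with AngII and 1676, 2234 and 2715 FPKM with TRV023. Cd3g, a chain of the T cell receptor complex, had 24.1, 23.6 and 21 FPKM with AngII, 10.5, 12.4 and 13 FPKM with TRV023 and 13.1, 8.94 and 18.9 FPKM in vehicle. None of these 3 genes overlapped between AngII and TRV023. Trv_917 was the lowest library for B cell markers, at a centred level of -1.27 against -0.24 and 0.27 in the other TRV023 libraries, and without it the B and plasma cell median was 0.51. Without Trv_917 the numbers higher at an unadjusted p under 0.05 were 2 of 18 B and plasma cell, 4 of 16 dendritic cell and 2 of 28 T and NK cell markers, the last with a median of 0.20. Without Ang2_922 it was 2 of 18 B and plasma cell markers, without Ang2_931 or without Trv_930 it was 3 of 18, and without Ang2_931 it was 3 higher and 1 lower of 28 T and NK cell markers. The T and NK cell median was 0.18 with library totals.

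Red cell genes were lower with AngII by their medians, with all 17 tested erythroid markers below 0 and a median of -0.93, but none of the 17 reached an unadjusted edgeR p of 0.05, nor was any called by DESeq2. Hbb, a beta globin, had 543, 374 and 445 FPKM with AngII, 1348, 2081 and 273 FPKM with TRV023 and 299.9, 1370 and 654 FPKM in vehicle, so that Trv_930 was lowest of all and the groups overlapped. Without Trv_918 the erythroid median was -0.32, with 12 of 17 below 0. Globin genes share sequence, and reads could be split between them. Of 23 neutrophil genes 1 was lower and 0 higher at an unadjusted p under 0.05, with a median of -0.55 that was -0.30 without Trv_917. Their log2 fold changes ran from -1.64 to 1.01, with 16 below 0 and 7 above, and Lcn2 was at 0.99. Clec4e, a receptor of neutrophils and macrophages for mycobacterial glycolipid, had 6.48, 8.31 and 8.56 FPKM with AngII and 17.8, 11.9 and 13.9 FPKM with TRV023, without overlap.

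**Figure D4:**
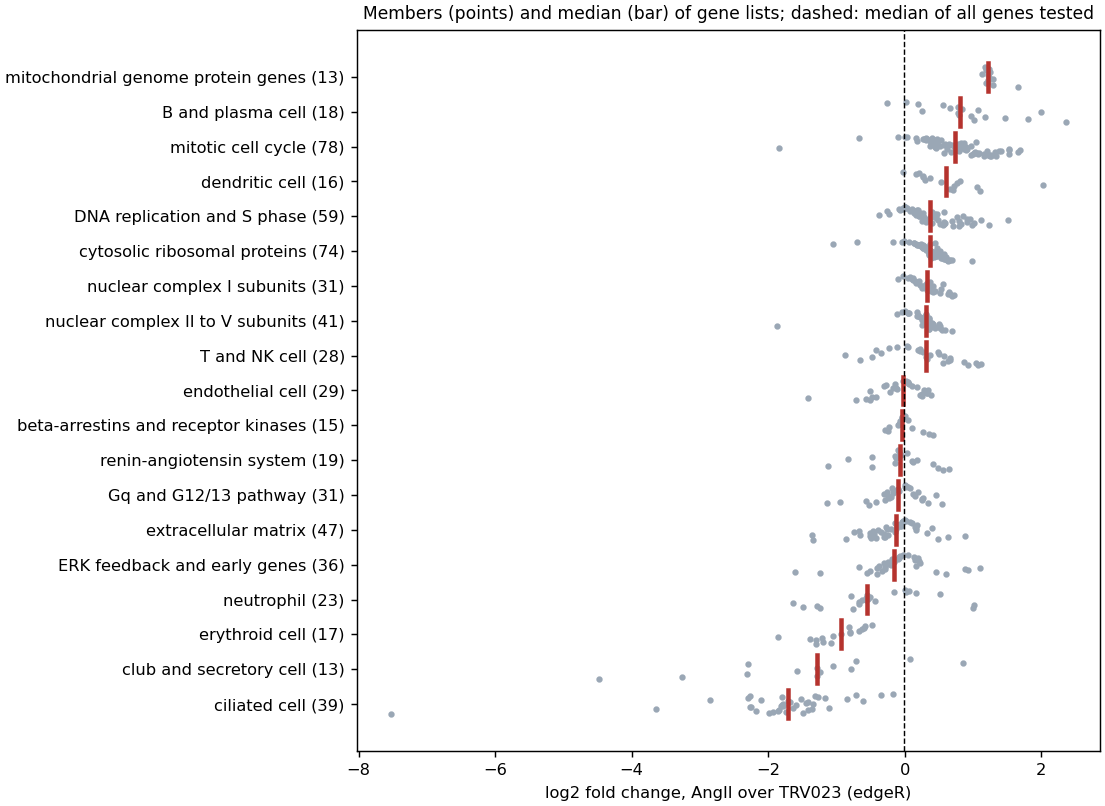
Log2 fold changes of AngII over TRV023 for the members of 19 gene lists, as points, with the median of each list as a bar and the number of tested members in brackets; the dashed line is the median of all genes tested. Medians run from -1.71 for ciliated cells to 1.23 for mitochondrial protein genes, and those of the renin-angiotensin, β-arrestin and Gq lists lie within 0.10 of 0.

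The lists of the receptor pathway had medians close to the -0.01 of all genes tested. With single AngII or TRV023 libraries left out these medians changed sign, between -0.10 and 0.06 for the renin-angiotensin system, -0.05 and 0.01 for β-arrestins and receptor kinases, and -0.21 and 0.01 for the Gq list. Agtr1a, the main AT1R gene of rat lung, had 24.2, 29.5 and 26.4 FPKM with AngII, 35.1, 26.1 and 30.6 FPKM with TRV023 and 31.1, 34.7 and 35.1 FPKM in vehicle. The groups overlapped, and the log2 fold change was -0.06 (-0.38 to 0.27, edgeR adjusted p = 0.916). Agtr2, the type 2 receptor, had 0.0181, 0.217 and 0.0985 FPKM with AngII and 0.274, 0.0507 and 0.199 FPKM with TRV023. Of 19 genes of the renin-angiotensin system 1 was higher and 0 lower at an unadjusted p under 0.05, with a median of -0.08. Of all genes tested 5.42% were higher and 5.43% lower at that threshold. These shares stand beside the counts of the receptor lists here and below. The 1 higher renin-angiotensin gene was Mme, neprilysin, a peptidase that cleaves angiotensins, at 12.4, 8.25 and 8.36 FPKM with AngII and 7.61, 7.99 and 5.97 FPKM with TRV023 (log2 fold change 0.56, 0.11 to 1.02). Mme had the smallest p of its list and did not pass edgeR at an adjusted p under 0.05.

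Of 15 genes of β-arrestins, receptor kinases and clathrin-mediated uptake, 2 were higher and 0 lower at an unadjusted p under 0.05, with a median of -0.04. Arrb1, β-arrestin 1, had 12.8, 6.93 and 8.82 FPKM with AngII and 10.5, 17.1 and 10.6 FPKM with TRV023 (log2 fold change -0.29, -0.91 to 0.34). Arrb2, β-arrestin 2, had 52, 53.3 and 46.5 FPKM with AngII and 40.5, 38.6 and 51.9 FPKM with TRV023 (log2 fold change 0.35, 0.04 to 0.66). The libraries of both genes overlapped. Arrb2 and Clta were the 2 higher genes. Clta, a clathrin light chain, had 303, 289 and 289.9 FPKM with AngII and 243, 246 and 239 FPKM with TRV023, without overlap.

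The Gq list had 2 genes higher and 2 lower of 31, with a median of -0.10. Plcb4, a phospholipase C that Gq activates, had 6.98, 6.32 and 7.47 FPKM with AngII, 11.9, 12.2 and 9.05 FPKM with TRV023 and 10.1, 12.2 and 13.6 FPKM in vehicle, with all AngII libraries lowest (log2 fold change -0.53, -0.88 to -0.18). Prkcb, a protein kinase C, had 14.8, 11 and 9.57 FPKM with AngII and 7.66, 8.17 and 10.6 FPKM with TRV023. Rgs5, a GTPase activator of pericytes that limits Gq signals, had 20.5, 20.2 and 23.7 FPKM with AngII, 68.6, 49.2 and 39.2 FPKM with TRV023 and 44.3, 47.4 and 148 FPKM in vehicle. Rgs2, which also limits Gq, had 43.7, 134 and 66.4 FPKM with AngII and 103, 98.7 and 106 FPKM with TRV023, and Rcan1, a target of calcineurin and NFAT, had 42.3, 53.8 and 51.6 FPKM with AngII and 49, 40.7 and 46.1 FPKM with TRV023. In Rgs2 the AngII libraries spanned the whole TRV023 range.

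In the list of early genes and ERK feedback 2 of 36 were higher and 3 lower, with a median of -0.16. Dusp1, a phosphatase of MAP kinases, had 65.9, 131 and 82.6 FPKM with AngII, 297, 264 and 171 FPKM with TRV023 and 55.6, 60.3 and 198 FPKM in vehicle. All TRV023 libraries were above all AngII libraries, and Veh_963 stood with TRV023 (log2 fold change -1.24, -2.43 to -0.04). Spry2, a feedback inhibitor of ERK signaling, had 25.9, 29.3 and 19.6 FPKM with AngII, 39.2, 34.7 and 35.1 FPKM with TRV023 and 27.5, 23.8 and 24.6 FPKM in vehicle. Dusp2, another MAP kinase phosphatase, had 15.7, 12.5 and 11.6 FPKM with AngII and 8.68, 7.39 and 12.5 FPKM with TRV023. Without Ang2_922 the median of the list was 0.00, and without Ang2_931 it was -0.39.

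The extracellular matrix list had 34 of 47 genes below 0 and a median of -0.13, with 1 higher and 2 lower at an unadjusted p under 0.05. Timp3, an inhibitor of metalloproteinases, had 244, 167 and 241 FPKM with AngII, 645, 794 and 378 FPKM with TRV023 and 391, 371 and 467 FPKM in vehicle. The AngII libraries were the lowest 3 (log2 fold change -1.34, -2.13 to -0.54, edgeR adjusted p = 0.281; DESeq2 adjusted p = 0.0232). Lox, which crosslinks collagen, had 34.2, 16.1 and 20.8 FPKM with AngII and 43.8, 56.4 and 40.6 FPKM with TRV023. Mmp2, a gelatinase, had 251, 181 and 214 FPKM with AngII and 378, 266 and 353 FPKM with TRV023, and Timp1, another metalloproteinase inhibitor, had 208, 349 and 276 FPKM with AngII and 436, 159 and 279.9 FPKM with TRV023. Mmp2 did not overlap in FPKM but did after TMM scaling, and Timp1 overlapped. Without Trv_917 the median of the list was -0.02 with 25 of 47 genes below 0, and without Trv_918 it was -0.24 with 39 below 0.

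Among genes of vasoactive mediators, 2 of 27 were higher and 3 lower at an unadjusted p under 0.05, with a median of -0.10. Ednrb, the endothelin type B receptor, had 15, 8.56 and 12.4 FPKM with AngII, 21.5, 22.3 and 20.7 FPKM with TRV023 and 22.7, 27.3 and 26.5 FPKM in vehicle. It was lowest in the AngII libraries (log2 fold change -0.71, -1.08 to -0.34; DESeq2 adjusted p = 0.0261). Adm, the vasodilator adrenomedullin, had 14.4, 18.1 and 18.5 FPKM with AngII, 62.6, 31 and 29 FPKM with TRV023 and 20, 26.7 and 21.6 FPKM in vehicle. Here the TRV023 libraries were the highest 3 (log2 fold change -1.13, -1.76 to -0.49; DESeq2 adjusted p = 0.029). Neither Ednrb nor Adm passed edgeR at an adjusted p under 0.05. Slc6a4, the serotonin transporter, had 12.3, 11.4 and 11.7 FPKM with AngII, 6.7, 7.03 and 7.06 FPKM with TRV023 and 9.37, 14.1 and 11.1 FPKM in vehicle, and the TRV023 libraries were the lowest 3.

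**Figure D5:**
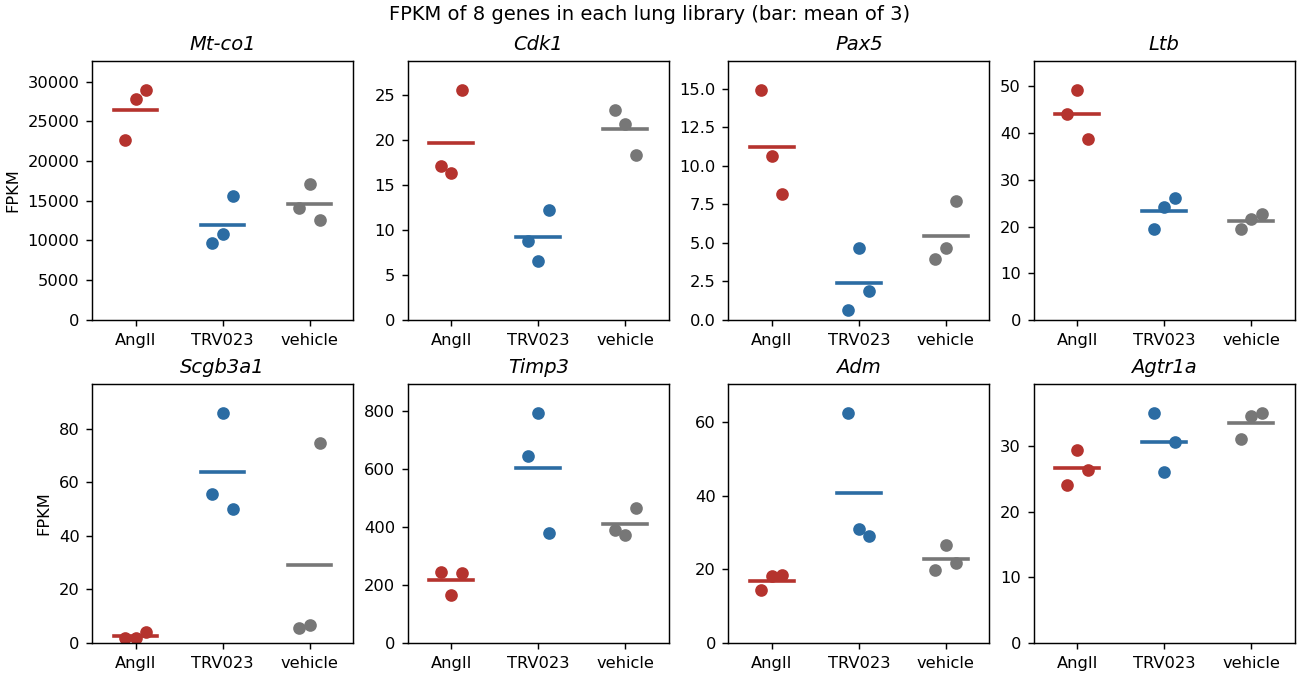
FPKM of 8 genes in each library with AngII, TRV023 and vehicle side by side; points are libraries and bars are means of 3. AngII libraries stand apart from TRV023 libraries in 7 of the genes, and in Agtr1a, the receptor gene, the groups overlap.

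Across all genes tested 20 were taken by a rule, the 10 higher and 10 lower genes with the smallest unadjusted p among those with no overlap in FPKM, none of which passed edgeR at an adjusted p under 0.05. All 20 passed DESeq2 at an adjusted p under 0.05, which called 0.543% of all genes higher and 0.789% lower. They were picked by small p from the same counts, so this outcome was close to fixed in advance. Ltb, Mt-atp8 and Lrrc23 of them are described above. Npw, neuropeptide W, had 34.7, 44.8 and 46.5 FPKM with AngII, 10.2, 17.6 and 12.4 FPKM with TRV023 and 47.8, 20.5 and 30.4 FPKM in vehicle. S100g, a calcium-binding protein, had 218, 166 and 199 FPKM with AngII, 69.2, 126 and 59.4 FPKM with TRV023 and 163, 141 and 236 FPKM in vehicle. Prph, peripherin, an intermediate filament of neurons, had 12.5, 26.3 and 6.82 FPKM with AngII, 2.51, 0.908 and 2.16 FPKM with TRV023 and 12.6, 15.8 and 6.5 FPKM in vehicle. In these 3 genes the vehicle libraries overlapped with AngII and TRV023 stood lowest. Il4i1, an amino acid oxidase of immune cells, Map4k1, a kinase of blood cells, Fam3b, a secreted protein, Erp29, a chaperone of the endoplasmic reticulum, and Serf2, whose product is a small protein, had log2 fold changes of 1.10, 0.76, 1.52, 0.83 and 0.79.

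Among the lower genes, Igfbp5, a binding protein of insulin-like growth factors, had 23.7, 19.5 and 24.1 FPKM with AngII, 61.4, 47.2 and 42.9 FPKM with TRV023 and 34.1, 48.5 and 47.9 FPKM in vehicle. The AngII libraries lay below all others (log2 fold change -1.04, -1.42 to -0.65). Scara5, a ferritin receptor, had 8.37, 8.69 and 8.55 FPKM with AngII, 22, 28.7 and 22.2 FPKM with TRV023 and 6.81, 11.4 and 16.7 FPKM in vehicle. Here the TRV023 libraries lay above all others. Gp2, a glycoprotein of M cells in airway and gut epithelium, had 0.362, 0.306 and 0.0907 FPKM with AngII and 2.39, 7.08 and 13.7 FPKM with TRV023, and Clic6, a chloride channel protein, had 0.647, 0.695 and 0.339 FPKM with AngII and 1.87, 4.11 and 4.02 FPKM with TRV023. Pitx1, a homeobox factor, had 4, 0 and 0 reads with AngII, 26, 40 and 56 with TRV023 and 43, 20 and 50 in vehicle. Summed, TRV023 had 30.4 times the Pitx1 reads of AngII (11.6 to 113, counting error only). Cdkl4, a kinase, had 2, 4 and 0 reads with AngII, 14, 74 and 26 with TRV023 and 34, 32 and 38 in vehicle. In both genes vehicle stood with TRV023. Fam179a, Adamts12, a metalloproteinase, and Ptprg, a receptor tyrosine phosphatase, had log2 fold changes of -2.52, -1.13 and -0.69.

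A further set of genes was fixed by name because they stood apart from vehicle with both drugs in earlier results of these data, or with 1 of them. Trem2, a receptor of lipid-laden macrophages, had 69.1, 129 and 73.2 FPKM with AngII, 78.8, 73.7 and 86 FPKM with TRV023 and 50.6, 24.5 and 39.4 FPKM in vehicle. Gdf15, a stress-induced cytokine, had 53.1, 60.1 and 56.5 FPKM with AngII, 74, 67.2 and 51.3 FPKM with TRV023 and 39, 33.5 and 29.9 FPKM in vehicle. AngII and TRV023 overlapped in both genes and lay above vehicle. In Los_925, Los_964 and Los_965 Trem2 had 49.8, 44.8 and 31.3 FPKM, within the vehicle range. Gdf15 had 35, 53.2 and 42.2 FPKM there, with Los_964 within the AngII range. Cxcl14, a chemokine, had 25.9, 19 and 28 FPKM with AngII, 16, 17.2 and 12.6 FPKM with TRV023 and 98.5, 59 and 40.7 FPKM in vehicle, and the 3 groups did not overlap. Arpp19, a regulator of phosphatase 2A, had 1.57, 1.89 and 0.684 FPKM with AngII, 1.1, 1.76 and 1.57 FPKM with TRV023 and 5.76, 10.4 and 13.8 FPKM in vehicle. RT1-CE16, an MHC class I gene, had 3.44, 2.13 and 3.89 FPKM with AngII, 2.54, 3.21 and 3.09 FPKM with TRV023 and 108, 100.2 and 229.5 FPKM in vehicle. In Arpp19 and RT1-CE16 AngII and TRV023 overlapped and both lay below vehicle. Arpp19 was also below vehicle with losartan, at 1.34, 2.57 and 1.21 FPKM in Los_925, Los_964 and Los_965. RT1-CE16 had 3.76, 198 and 3.73 FPKM in these losartan libraries, which differed among themselves. The Arpp19 gene model used here is 339 bases long, the same as its span on the chromosome, so it holds no intron. Whether its reads come from this site was not tested. Between AngII and TRV023 the log2 fold changes of Trem2, Gdf15, Cxcl14, Arpp19 and RT1-CE16 were 0.34, -0.04, 0.81, 0.05 and 0.23, with intervals that all included 0. RT1 genes are near-identical copies of each other, and their counts are uncertain.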

How the data were processed

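RNA was sequenced from lungs of MCT rats, with 3 libraries each for AngII, TRV023, vehicle and losartan, as grouped by the labels. The authors deposited read counts per gene and FPKM for each library. FPKM equalled the count per gene length and counted reads within 1% for 89.0% to 89.4% of genes. For the aligner, the genome build and the strand setting, nothing is given in the sources used. Columns of scaled signal, fold changes and p-values made by the authors were not used.

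Genes in both tables were fitted in 12 libraries with edgeR 4.0.16 in R 4.3.3 (TMM, filterByExpr, group means, quasi-likelihood F test, contrast AngII minus TRV023, Benjamini-Hochberg adjusted p under 0.05). Genes not in the losartan table (7 of those tested) had their losartan counts set to 0. DESeq2 1.42.0 and limma 3.58.1 were alternatives, as were other libraries, scalings, filters, units and the removal of each library. DESeq2 with single libraries left out or with 6 libraries, and the FPKM count of genes without overlap, were chosen after seeing the data. The edgeR steps were tested on simulated data.

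Genes named were the 10 with the smallest p in each direction without overlap in FPKM, up to 4 with the smallest p in each list, a fixed set, and the mitotic genes with printed promoters; Aurkb, Ccdc121 and H3f3c were chosen after their values were seen. Agtr1b and Acta2, of the fixed set, had no value used here. List members named for a small p were likely to be without overlap for that reason, so their lack of overlap is description only. Some list members are not reported by name here. The members and lists were chosen with earlier results of these data known. Counted reads per library were 16106337 to 20096877, and intervals on read ratios cover counting error only. According to the study each group was 3 rats. The edgeR p-values set the difference between AngII and TRV023 against a spread between animals estimated over all 12 libraries.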

Additional observations from a re-analysis of the deposited data

How the results depend on the processing

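No gene was called with limma-voom, either FPKM pseudocount, library totals, other filters or the gene length trend removed, and edgeR called 1, Scgb3a1, with the 6 AngII and TRV023 libraries alone. DESeq2 called 216 genes, and edgeR called 2 at an adjusted p under 0.1, Ltb and Lrrc23. Leaving out each library gave 0 to 1 genes; the 1 was H3f3c without Veh_963 (log2 fold change 2.31, edgeR adjusted p = 0.0109), and it has near-identical copies. The DESeq2 count was 370 with 6 libraries and 35 to 803 with each AngII or TRV023 library left out, 803 without Ang2_922, 35 without Ang2_931, 50 without Ang2_933 and 40 without Trv_918. Without overlap, 680 genes lay above and 2280 below in FPKM, against 1322 above and 1246 below in TMM-scaled CPM. The mitotic median was 0.40 on log2(FPKM + 1). With each library left out it was 0.60 to 0.92, the ciliated median -2.57 to -1.35, the mitochondrial median 1.10 to 1.49 and the B and plasma cell median 0.51 to 1.14.

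Arpp19 was at -0.037 with limma-voom, -0.084 and -0.17 on log2(FPKM + 1) and log2(FPKM + 0.1), -0.10 with library totals and -0.19 with the length trend removed, and Timp1 at -0.070 and -0.057 in the last 2 of these. With each library left out, Agtr1a ranged from -0.18 to 0.069, Agtr2 from -1.44 to 0.041, Rgs2 from -0.78 to 0.15, Trem2 from -0.052 to 0.53, Gdf15 from -0.17 to 0.10, Arpp19 from -0.28 to 0.36 and Timp1 from -0.24 to 0.50. The cause of these shifts was not tested. No paired analysis was possible because the groups share no replicate number. With 3 libraries a group, depth limits mainly the genes with few reads, such as Lrrc23.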

Other observations

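Of 13 alveolar type 2 cell genes, 3 were higher with AngII and 0 lower at an unadjusted p under 0.05, with a median log2 fold change of 0.41, and of 14 alveolar type 1 cell genes 0 were higher and 2 lower, with a median of -0.33. Ager, a receptor of type 1 cells, had 959.7, 981 and 1293 FPKM with AngII and 2068, 2057 and 1303 FPKM with TRV023. Of 19 platelet and megakaryocyte genes 4 were higher and 1 lower, with a median of 0.40. Itga2b, the platelet integrin chain, had 6.19, 7.78 and 15 FPKM with AngII, 3.86, 4.02 and 4.54 FPKM with TRV023 and 2.46, 8.95 and 5.14 FPKM in vehicle, with AngII above TRV023 in every library. Of 10 skeletal muscle genes 4 were higher and 0 lower, with a median of 1.14. Tnni2, a troponin of fast muscle, had 1.02, 2.9 and 7.01 FPKM with AngII, 0.675, 0.947 and 1.01 FPKM with TRV023 and 0.749, 0.775 and 1.62 FPKM in vehicle.

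Of 16 mast cell genes 2 were higher and 1 lower at an unadjusted p under 0.05, with a median of 0.26 and a range of -1.79 to 2.83. The highest was Mcpt2, a mast cell protease, which had 355, 161 and 193 FPKM with AngII, 14.2, 39.8 and 54.6 FPKM with TRV023 and 166, 177 and 60.5 FPKM in vehicle (log2 fold change 2.83, 1.37 to 4.30; DESeq2 adjusted p = 0.0238), and it has close relatives whose reads may be shared. Mcpt2 did not pass edgeR at an adjusted p under 0.05. Of 24 smooth muscle contractile genes 0 were higher and 1 lower at an unadjusted p under 0.05. Of 29 endothelial genes 0 were higher and 1 lower at an unadjusted p under 0.05. At the same threshold integrated and ER stress genes had 0 of 32 in either direction, as did 25 genes of cholesterol and fatty acid synthesis, and DESeq2 called 0 in both lists.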
